A study of Mus musculus with 22 samples.

Results

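Expression of all annotated genes was compared between day 21 and day 1 of an induction that turns mouse embryonic fibroblasts (MEFs) towards neural progenitor cells (NPCs). The libraries were chosen by their day label, 2 of day 1 and 2 of day 21, which is 4 of the 22 libraries in the series. All 4 came from C57BL/6 MEFs carried through the same induction, whose product the submitters name giNPC, so the groups differed in time under induction and not in strain or treatment. The factors used for induction, their promoters and vectors, and the age of the embryos are not stated in the sources at hand, and no uninduced culture enters the comparison. The labels number the replicates without saying whether they were separate inductions, so p-values measure the spread of these samples alone, and that spread may be technical. RNA was poly(A)-selected, copied from random hexamers and sequenced in paired ends of 100 bases on a HiSeq 2000.

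Fibroblasts build and remodel connective tissue: they secrete collagens and glycoproteins, process them in the endoplasmic reticulum (ER), cut them with secreted proteases and pull on them through actin stress fibres. Neural progenitors divide under the control of Sox and basic helix-loop-helix transcription factors, and in culture they share many transporter, channel and metabolic genes with astrocytes, the glia that clear glutamate and potassium from the space around neurons. In bulk RNA, fewer cells of a type and less RNA per cell cannot be told apart, and this holds for every level given here.

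The day 1 libraries held 6256721 and 5443723 reads counted in transcripts, and the day 21 libraries held 3084428 and 3243445. Levels are FPKM (fragments per kilobase of transcript, scaled to the mapped fragments of the library), given for replicates 1 and 2 in that order. Log2 fold changes are day 21 against day 1 with their standard error (SE). They come from edgeR on counts for genes with 1 annotated transcript, and from limma on log2(FPKM + 1) for genes with several transcripts, where the change of low genes is understated. A gene was called higher or lower when its p-value adjusted over all genes was under 0.05 and its change was at least 2-fold, and "rose" and "fell" are used only for called genes. Markers of fibroblasts summed to 5152 and 5067 FPKM at day 1 and to 597 and 622 FPKM at day 21, and those of neural progenitors to 27.7 and 46.7 FPKM at day 1 and to 4110 and 3853 FPKM at day 21. Most of the neural progenitor sum at day 21 was Fabp7, at 3608 and 3369 FPKM. Fabp7 also had unequal day 1 levels of 0.759 and 21.1 FPKM. Of the 10 neural progenitor markers, 9 were called higher. All 12 fibroblast markers were still above 0.1 FPKM at day 21.

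Called genes were numerous between these days. Of 16307 genes tested, 3226 were higher at day 21 (19.8%) and 2486 were lower (15.2%). Among 13023 genes tested on counts, 2578 were higher (19.8%) and 2150 were lower (16.5%), and among 3284 tested on FPKM, 648 were higher (19.7%) and 336 were lower (10.2%). Of the calls on FPKM, 65.9% were higher, but 50.4% were higher (459 against 452) when the libraries were quantile normalised. With limma on FPKM for all genes, 2871 were higher and 1605 lower of 15658 tested, and with quantile normalised FPKM for all genes, an alternative chosen after seeing the data, 2084 were higher and 2151 lower, so the excess of higher calls depended on the scaling. The log2(FPKM + 1) scale also shrinks list medians wherever low genes are many, and some other lists have a larger median on it. Where it moves a median by over 1.5 times, the value on that scale is also given. The median log2 fold change of all genes was 0.00 on counts and 0.15 on FPKM. The changes were often large, with 1258 genes more than 8-fold higher and 654 more than 8-fold lower. For 178 genes the mean level went from under 0.1 FPKM at day 1 to at least 5 FPKM at day 21, and for 22 genes the reverse held. A level of 1 FPKM was reached by many genes throughout: 10415 genes had at least 1 FPKM on both days, against 11071 at day 1 and 11996 at day 21.

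**Figure D1:**
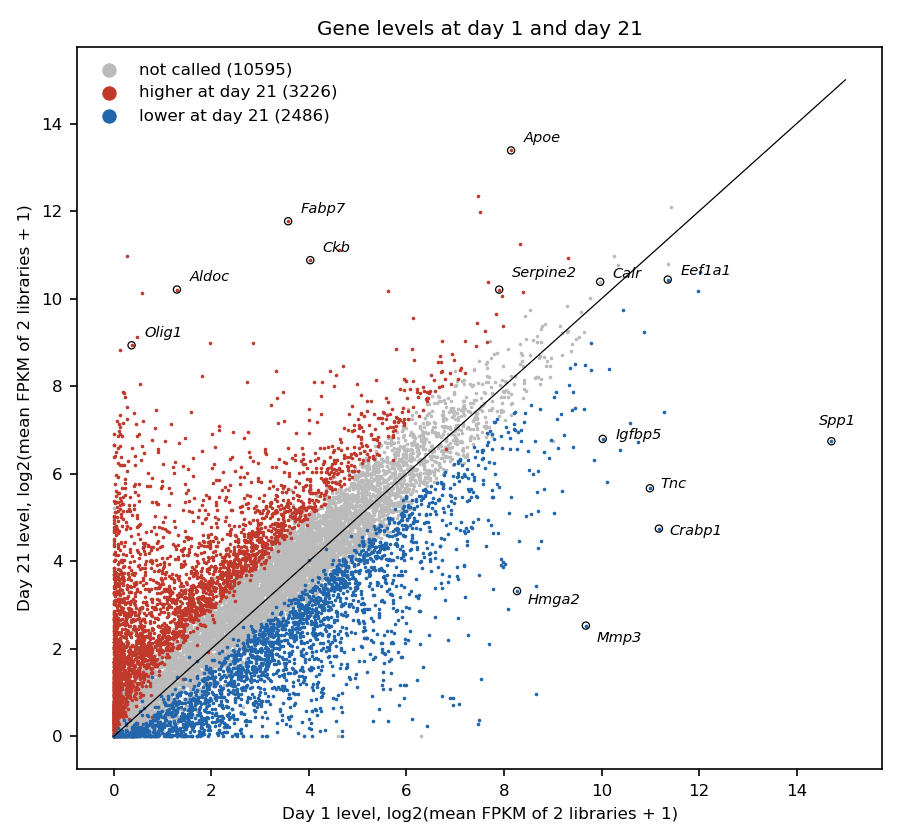
Each point is 1 of the 16307 genes tested, with its mean level in the 2 day 1 libraries on the x axis and in the 2 day 21 libraries on the y axis, both as log2(mean FPKM + 1). Red points were called higher at day 21 (3226), blue points lower (2486) and grey points were not called, and the named genes span the range from Spp1, the highest at day 1, to Apoe, the highest of those named at day 21.

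The called genes with the largest gains in FPKM began with Apoe, Dbi and Cst3, and those with the largest losses with Spp1, Mir703 and Tmsb4x. Apoe (chromosome 7, 20281593 to 20284515, mm9), the lipid carrier that astrocytes secrete, had 257 and 308 FPKM at day 1 and 9544 and 11870 FPKM at day 21. It rose by 5.09 ± 0.47 on the log2 scale (SE, counts, adjusted p = 8.28e-09), and both day 21 libraries lay far above both day 1 libraries. Dbi, which binds long-chain acyl-CoA, went from 176 and 179 FPKM to 4826 and 5637 FPKM. Its log2 fold change was 4.87 on FPKM but 0.90, under the 2-fold threshold, on summed counts. Those counts apparently leave out reads that its transcripts share, and the cause of the difference was not tested. Cst3, the secreted cathepsin inhibitor cystatin C, went from 181 and 181 FPKM to 4123 and 3940 FPKM. Sparcl1, a secreted glycoprotein that astrocytes use at synapses, went from 23.4 and 23.4 FPKM to 2123 and 2330 FPKM. None of these gains overlapped with day 1, and the day 21 replicates lay close together. Ckb, the brain form of creatine kinase, rose by 6.94 ± 0.35 (log2, counts) from 13.3 and 17.4 FPKM to 1760 and 2006 FPKM. Aldoc, the brain form of aldolase, rose by 9.76 ± 0.27 (log2, counts) from 1.01 and 1.89 FPKM to 1130 and 1235 FPKM. Fabp7, the fatty acid-binding protein of radial glia, had 0.759 and 21.1 FPKM at day 1 and 3608 and 3369 FPKM at day 21. The day 1 replicates of Fabp7 were unequal, so its log2 fold change of 8.03 (counts) became 12.21 without day 1 replicate 2.

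On the other side stood Spp1 (chromosome 5, 104864130 to 104870072, mm9), the secreted phosphoprotein osteopontin, with 26766 and 26918 FPKM at day 1 and 99.4 and 113 FPKM at day 21. It fell by 7.97 ± 0.50 on the log2 scale (SE, FPKM, adjusted p = 3.32e-09). Crabp1, which binds retinoic acid in the cytosol, went from 2218 and 2406 FPKM to 22.4 and 29.3 FPKM. Bgn, the matrix proteoglycan biglycan, went from 2293 and 2693 FPKM to 174 and 166 FPKM. Each of these 3 genes was lower in both day 21 libraries by more than its replicates differed. Ctsl, a lysosomal protease that fibroblasts also secrete, fell by 4.39 ± 0.16 (log2, counts) from 1763 and 1650 FPKM to 97.5 and 112 FPKM. Mir703, a noncoding transcript of 109 bases, fell by 1.66 ± 0.38 (log2, counts). It was listed at 4690 and 3407 FPKM at day 1 and at 2298 and 0 FPKM at day 21, but the library listed at 0 held 29 counts, so its FPKM are uncertain, and it was not called with limma on FPKM. Eef1a1, the translation elongation factor, was among the largest losses in FPKM with a log2 fold change of -1.27 ± 0.16 (counts), from 2590 and 2654 FPKM to 1397 and 1370 FPKM. On FPKM that change was -0.92, short of 2-fold. The 10 most abundant genes held 14.8% of all FPKM in both day 1 libraries and 10.1% and 11% in the day 21 libraries.

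**Figure D2:**
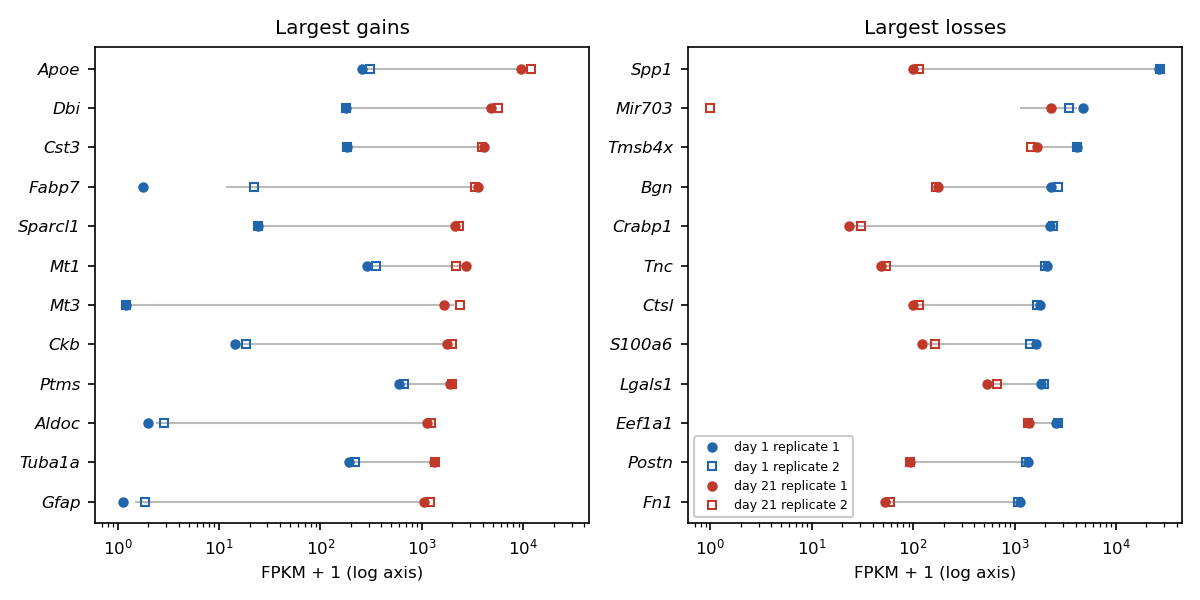
The called genes with the largest gain (left) and the largest loss (right) in mean FPKM are shown by library, as FPKM + 1 on a log axis. Circles are replicate 1 and squares replicate 2, blue for day 1 and red for day 21, and grey lines join the group means. The groups do not overlap for any gene shown. The day 1 replicates of Fabp7 lie far apart, and so do the day 21 replicates of Mir703, of which 1 is listed at 0.

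Genes for building the matrix fell broadly. Of 43 collagen chains tested, 20 fell and 9 rose, with a median log2 fold change of -1.61 (-0.51 on log2(FPKM + 1)). Over all genes the median was 0.01 (0.12 on log2(FPKM + 1)). With quantile normalised FPKM 4 chains rose. Col6a3, a chain of microfibrillar collagen, went from 259 and 244 FPKM to 13.9 and 15.8 FPKM, and Col5a1, which sets the width of collagen fibrils, from 138 and 149 FPKM to 13.6 and 14.1 FPKM. The chains that rose were low at day 1, such as Col11a1, a fibrillar chain known from cartilage, which had 5.23 and 5.44 FPKM at day 1 and 17.5 and 18.3 FPKM at day 21. Of 24 enzymes that modify collagen 18 fell (75%) and 1 rose, with a median of -1.70. Loxl2, a lysyl oxidase that cross-links collagen, had 251 and 239 FPKM at day 1 and 16.2 and 14.8 FPKM at day 21, and its log2 fold change was -4.18 ± 0.29 (counts, adjusted p = 6.15e-11). P4ha2, a catalytic subunit of prolyl hydroxylase, went from 64.4 and 63.9 FPKM to 4.24 and 2.9 FPKM. Ppib, a prolyl isomerase of the ER, was not called at 432 and 404 FPKM against 360 and 431 FPKM. Leprel1, a prolyl 3-hydroxylase, was the enzyme that rose, from 1.03 and 1.28 FPKM to 4.18 and 4.61 FPKM. Fibroblast markers fell over the same interval (11 of 12), and their part in the fall of matrix genes was not tested.

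Of 16 matricellular genes, which code for secreted proteins that tune adhesion, 9 fell and 2 rose, with a median log2 fold change of -3.63 (-0.78 on log2(FPKM + 1)). Tnc, the wound and stem-cell matrix protein tenascin-C, fell by 5.62 ± 0.28 (log2, counts) from 2083 and 1982 FPKM to 46.7 and 52.9 FPKM. Thbs2, an inhibitor of blood vessel growth, fell by 4.65 ± 0.28 (log2, counts) from 441 and 423 FPKM to 21 and 21.2 FPKM. Sparc was an exception among the abundant members. It stayed at 1813 and 1708 FPKM at day 21, against 2590 and 2673 FPKM at day 1, and was not called. Ctgf rose from 2.77 and 2.77 FPKM to 20.4 and 18.2 FPKM. Matricellular genes held 9.92% and 9.87% of all FPKM at day 1, most of it in Spp1, and 0.616% and 0.577% at day 21. Without the 10 most abundant genes the mean shares were 1.67% and 0.0971%. Among 17 genes of brain matrix, 6 rose and 3 fell. Their median was 2.37, but 0.19 over the 13 that could be tested on log2(FPKM + 1) and -0.00 when those values were also quantile normalised. Ncan, the proteoglycan neurocan, rose by 10.9 ± 0.41 (log2, counts) from 0.0105 and 0.142 FPKM to 144 and 133 FPKM, while Has2, a hyaluronan synthase, fell from 8.44 and 7.97 FPKM to 0.733 and 0.621 FPKM.

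Many matrix metalloproteinases, which cut collagen and other matrix proteins, fell. Of 21 tested, 13 fell (61.9%) and 3 rose (14.3%), with a median log2 fold change of -3.86 (-2.08 on log2(FPKM + 1)). Mmp3, stromelysin-1, had 824 and 813 FPKM at day 1 and 2.78 and 6.76 FPKM at day 21, and its log2 fold change was -7.83 ± 0.40 (counts, adjusted p = 5.7e-13). Mmp10, stromelysin-2, had 424 and 384 FPKM at day 1 and 0.672 and 1.2 FPKM at day 21, and its log2 fold change was -8.98 ± 0.31 (counts, adjusted p = 3.66e-15). Mmp14, a membrane-bound enzyme that activates others, kept more of its level, with 408 and 420 FPKM against 35.7 and 33.3 FPKM. Mmp9, gelatinase B, had 82.9 and 86.3 FPKM at day 1 and 0 and 0.359 FPKM at day 21. Its 2 reads at day 21 gave a ratio of 1492 (95% interval 413 to 12325, counting error only). Mmp15, another membrane-bound member, went the other way and rose by 7.54 ± 0.31 (log2, counts) from 0.268 and 0.427 FPKM to 56 and 50.7 FPKM.

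Most of the secreted members that fell are neighbours on chromosome 9. The run of Dcun1d5, Mmp13, Mmp12, Mmp1b, Mmp3, Mmp1a and Mmp10 (7184566 to 7510240, mm9) held 7 neighbouring tested genes that were all called lower. Mmp12, macrophage elastase, went from 128 and 119 FPKM to 0.529 and 0.736 FPKM. Mmp13, a collagenase, went from 25.1 and 24.2 FPKM to 0 and 0.159 FPKM. Mmp8 and Mmp7 in the same region were at or below 0.649 FPKM in every library and were not called. Mmp1a and Mmp1b are close copies, so reads may have been divided between them or set aside, and their separate levels of 15.1 and 15 FPKM and of 8.2 and 7.14 FPKM at day 1 are uncertain. Dcun1d5, which is no protease, fell from 120 and 114 FPKM to 49 and 51.8 FPKM. This stretch and the runs described further on were singled out after their values were seen.

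Several of these promoters hold the AP-1 motif TGANTCA, the sequence bound by Fos and Jun dimers and known as a control element of secreted metalloproteinases. In the 250 bases before the start, the motif, which reads the same on both strands, stood in the promoters of 5 of the 10 metalloproteinases that fell and had a RefSeq promoter. It stood in 1 of 5 promoters of those not called (Mmp7), in 0 of 1 of those that rose, and in 6.75% of all 32851 mouse RefSeq promoters (2217). Mmp7 and the 5 that fell lie in the same region of chromosome 9, and Mmp1a and Mmp1b are close copies. The motif may therefore belong to this group of neighbours, and its tie to the fall was not tested. The 120 bases before the start of these 5 genes are shown, 5′ to 3′ on the gene's strand, because their transcripts fell together, with the motif in capitals. They lie on chromosome 9 of GRCm38.p6, with Mmp3 at 7445702 to 7445821, Mmp10 at 7502222 to 7502341, Mmp13 at 7272394 to 7272513 and Mmp1a at 7464021 to 7464140 on the plus strand, and Mmp1b at 7388027 to 7388146 on the minus strand.
Mmp3: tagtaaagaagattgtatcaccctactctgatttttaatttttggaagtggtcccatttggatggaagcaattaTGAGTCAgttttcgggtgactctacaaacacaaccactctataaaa
Mmp10: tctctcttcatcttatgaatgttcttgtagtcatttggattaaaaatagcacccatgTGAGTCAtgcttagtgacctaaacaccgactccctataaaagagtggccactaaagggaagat
Mmp13: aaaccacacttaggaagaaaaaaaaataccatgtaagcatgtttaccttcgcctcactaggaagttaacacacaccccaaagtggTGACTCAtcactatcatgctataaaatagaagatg
Mmp1a: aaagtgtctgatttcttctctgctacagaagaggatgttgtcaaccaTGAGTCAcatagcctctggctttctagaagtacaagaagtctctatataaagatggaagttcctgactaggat
Mmp1b: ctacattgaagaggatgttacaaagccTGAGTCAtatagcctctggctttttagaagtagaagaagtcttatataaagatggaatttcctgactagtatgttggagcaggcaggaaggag
The motif begins at position -46 from the start in Mmp3, -63 in Mmp10, -35 in Mmp13, -73 in Mmp1a and -93 in Mmp1b. A match describes these letters and is not shown to be a bound site.

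Of the AP-1 and early response factors, 11 of 21 fell and 2 rose (1 without day 1 replicate 1 or without day 21 replicate 1), with a median log2 fold change of -1.58 (-0.74 on log2(FPKM + 1), with 1 higher). The AP-1 subunits did not move together. Fosl1 had 17.8 and 17.6 FPKM at day 1 and 0.183 FPKM and a value listed as 2.47e-10 at day 21, and it fell by 3.27 ± 0.48 (log2, counts). The fall in FPKM was much deeper than that on counts, so its size is uncertain. Fos rose by 1.86 ± 0.24 (log2, counts) from 4.72 and 4.88 FPKM to 19.9 and 21.4 FPKM. Jun was not called, at 70 and 75.3 FPKM against 45.2 and 49.5 FPKM. The other large falls in this list were zinc finger factors and not AP-1 subunits. Klf4 went from 12.8 and 13.2 FPKM to 2.21 and 1.53 FPKM, and Klf2 from 10.5 and 13.4 FPKM to 0.788 and 0.484 FPKM.

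The 4 tissue inhibitors of metalloproteinases, which block these enzymes, were all called and split evenly. Timp1 and Timp2 fell, from 359 and 411 FPKM to 60.5 and 64.1 FPKM and from 402 and 390 FPKM to 107 and 104 FPKM. Timp3 rose from 23.3 and 24.1 FPKM to 109 and 109 FPKM. Timp4, the form known from brain and heart, had no counts at day 1 and 128 and 139 FPKM at day 21, which is at least 1065-fold higher against a floor of 3 counts over both day 1 libraries.

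Attachment to the matrix shifted in the same libraries. Of 28 integrins 13 fell and 4 rose (2 on log2(FPKM + 1)), and of 12 annexins, calcium-dependent membrane-binding proteins, 7 fell and 0 rose. Itgb1, the beta subunit that most matrix receptors share, went from 575 and 574 FPKM to 178 and 147 FPKM, a log2 fold change of -2.12 ± 0.17 (counts). Itgb3, part of the vitronectin receptor, fell by 7.78 ± 0.25 (log2, counts) from 67.7 and 68.2 FPKM to 0.255 and 0.356 FPKM. Itgb8, a subunit found on glia, rose by 6.51 ± 0.53 (log2, counts) from 0.201 and 0.313 FPKM to 27.5 and 24.5 FPKM. Anxa1, the annexin with the deepest fall among the abundant ones, went from 525 and 513 FPKM to 33.7 and 32.6 FPKM.

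The actin machinery of the fibroblast fell in part. Of 39 genes of stress fibres and focal adhesions, 20 fell and 4 rose, with a median log2 fold change of -1.0. Tpm1, a tropomyosin that stabilises actin cables, went from 1169 and 1120 FPKM to 317 and 353 FPKM (-1.85 and not called on summed counts), and Cald1, which couples actin to myosin, from 495 and 473 FPKM to 81.7 and 80.4 FPKM. Tes, a focal adhesion protein, fell by 5.72 ± 0.25 (log2, counts) from 81.7 and 77.4 FPKM to 1.83 and 2.17 FPKM. The contractile genes of smooth muscle behaved differently. Acta2, smooth muscle actin, rose by 1.82 ± 0.22 (log2, counts, adjusted p = 4.33e-07) from 31.8 and 33 FPKM to 126 and 143 FPKM. Tagln, an actin cross-linker, rose by 1.96 ± 0.25 (log2, counts) from 28.4 and 30.2 FPKM to 143 and 133 FPKM. Both lay above day 1 in both day 21 libraries. Of 9 smooth muscle and pericyte markers tested, 3 rose (Acta2, Tagln and Des) and 3 fell (Pdgfrb, Rgs5 and Cspg4), and the whole list of 10 summed to 125 and 128 FPKM at day 1 and to 301 and 309 FPKM at day 21. Whether smooth muscle-like cells or single transcripts account for this was not tested. Microtubule genes moved the other way: 15 of 23 microtubule-associated genes of neural cells rose and 1 fell (2 without day 1 replicate 2 or without day 21 replicate 1). Tuba1a, an alpha tubulin of growing neural cells, rose by 2.54 ± 0.14 (log2, counts) from 192 and 216 FPKM to 1314 and 1337 FPKM. Stmn3, a microtubule-destabilising protein, had no counts at day 1 and was at least 165-fold higher, with 30.6 and 31.7 FPKM at day 21. Tubb6 fell from 127 and 135 FPKM to 54.8 and 64.5 FPKM.

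The secretory pathway and the lysosome lost transcripts, and no member of either list rose. Of 26 genes for folding and transport in the ER, 16 fell (61.5%, or 10 genes on log2(FPKM + 1)), with a median log2 fold change of -1.17. Kdelr3, which returns ER proteins from the Golgi, fell by 3.69 ± 0.29 (log2, counts) from 63.7 and 61.1 FPKM to 6.98 and 6.51 FPKM, and Sec24d, a coat protein of ER transport vesicles, fell from 39.8 and 42.7 FPKM to 10.7 and 10.5 FPKM. Pdia3, a disulphide isomerase, went from 681 and 633 FPKM to 352 and 327 FPKM, which is -0.95 on the FPKM log2 scale and so called on counts only. Calr, the calcium-binding chaperone calreticulin, was the most abundant of the list and was not called, at 1005 and 1001 FPKM against 1254 and 1418 FPKM. Of 27 lysosomal hydrolases and membrane proteins, 14 fell (51.9%), with a median of -1.14. Ctsk, a collagen-degrading protease, fell by 4.45 ± 0.22 (log2, counts) from 255 and 235 FPKM to 14.4 and 13.9 FPKM. Ctsd and Psap, which act in most cells, were not called, at 418 and 396 against 509 and 616 FPKM and at 445 and 475 against 677 and 684 FPKM. Macrophages are rich in lysosomes, and 10 of their 14 markers fell. The sum of those markers went from 1013 and 1030 FPKM to 450 and 539 FPKM, and their part in the lysosomal fall was not tested.

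Among mitochondrial genes, more were higher than lower, by modest amounts. Of 85 subunits of the respiratory chain, which makes most of a cell's ATP, 40 rose (47.1%) and 1 fell. The median log2 fold change was 0.98, which is close to the 2-fold threshold, so the number depended on the setting. When the 2-fold change itself was tested with glmTreat, 26 rose. On log2(FPKM + 1), 60 of 86 rose and 0 fell, and with quantile normalised FPKM 52 rose and 2 fell. Cox6b1, a subunit of cytochrome oxidase, went from 322 and 347 FPKM to 1092 and 1183 FPKM, a log2 fold change of 1.64 ± 0.18 (counts, adjusted p = 9.33e-08). Ndufa4 went from 231 and 223 FPKM to 849 and 756 FPKM. Atp5b, the catalytic subunit of ATP synthase, lay above day 1 in both libraries but short of the threshold, with a log2 fold change of 0.89 ± 0.14 (counts), at 351 and 336 FPKM against 758 and 807 FPKM. These subunits held 1.65% and 1.69% of all FPKM at day 1 and 3.97% and 4.07% at day 21. Of 75 mitochondrial ribosomal proteins 10 rose (13.3%) and 0 fell, with a median of 0.29 (0.55 on log2(FPKM + 1)). That share of higher calls was below the 19.8% of all genes. On log2(FPKM + 1), 14 of 76 rose, a share like that of all genes (2871 of 15658). In the citric acid cycle, 8 of 22 genes rose and 0 fell, with a median of 0.78. Idh3g, a subunit of isocitrate dehydrogenase, rose from 46.5 and 47.1 FPKM to 195 and 228 FPKM.

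Lipid genes changed in kind. Of 15 genes for making and desaturating fatty acids, 8 rose and 0 fell, with a median log2 fold change of 1.40 (0.90 on log2(FPKM + 1)). Fads2, a desaturase for long polyunsaturated fatty acids, rose by 3.97 ± 0.16 (log2, counts, adjusted p = 8.71e-15) from 16.3 and 16 FPKM to 266 and 281 FPKM. Scd2, the desaturase typical of brain, rose from 105 and 105 FPKM to 539 and 511 FPKM. In fatty acid oxidation 11 of 24 rose and 2 fell. Acsbg1, a brain acyl-CoA synthetase, rose by 5.05 ± 0.26 (log2, counts) from 3.93 and 2.96 FPKM to 116 and 154 FPKM. A related synthetase, Acsl4, fell from 32.1 and 33.2 FPKM to 3.45 and 2.9 FPKM. In cholesterol synthesis 4 of 18 genes rose (22.2%, or 2 genes on counts for all genes) and 1 fell (5.56%). The share that rose was near the 19.8% of all genes. The most abundant members of this list, Sc4mol, Cyp51 and Idi1, were not called. Sc4mol had 36.6 and 38.9 against 41.3 and 39.4 FPKM, and the other two were at 30.5 and 31.8 against 44.5 and 38.2 FPKM and at 25.6 and 24.7 against 34.9 and 29.4 FPKM. Carriers of lipids split, with 8 of 20 higher and 6 lower. Clu, the secreted chaperone clusterin, rose from 19.7 and 17 FPKM to 247 and 297 FPKM, and Npc2, a cholesterol carrier of the lysosome, fell from 148 and 156 FPKM to 56.8 and 60.1 FPKM. The carriers together went from 0.191% and 0.21% of all FPKM at day 1 to 3.9% and 4.35% at day 21, and most of the day 21 share was Apoe and Fabp7. Without the 10 most abundant genes the mean shares were 0.133% and 0.294%.

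Genes that handle amino acids, glycogen and toxic compounds moved in both directions, with more of them higher than lower. Of 24 genes that handle glutamate and GABA, 14 rose and 5 fell. Slc6a11, a GABA transporter of astrocytes, had 0 and 0.0196 FPKM at day 1 and 36 and 32.3 FPKM at day 21, a ratio of 2298 (95% interval 412 to 90809, counting error only). Slc38a3, which exports glutamine, rose by 6.69 ± 0.18 (log2, FPKM) from 0.0324 and 0.21 FPKM to 108 and 121 FPKM. Glud1, glutamate dehydrogenase, rose from 41.7 and 41.1 FPKM to 157 and 151 FPKM. Among those that fell, Asns, asparagine synthetase, went from 62.6 and 53.7 FPKM to 13.4 and 11.9 FPKM, and Slc38a2, a general amino acid importer, from 54.7 and 53.4 FPKM to 13.6 and 13.8 FPKM.

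In the glycine and folate list, 7 of 18 rose and 3 fell. Gldc and Amt, which belong to the glycine cleavage system, rose: Amt from 0.962 and 0.992 FPKM to 50.6 and 52.9 FPKM, and Gldc from 0.0205 and 0.0425 FPKM to 12.3 and 12.3 FPKM. Mthfd2, a mitochondrial folate enzyme, fell from 42.2 and 42 FPKM to 18.8 and 16.5 FPKM. Of 21 glycogen genes 9 rose and 4 fell (2 on log2(FPKM + 1)). Pygb, the brain glycogen phosphorylase, rose by 3.0 ± 0.15 (log2, counts) from 17.6 and 18.3 FPKM to 167 and 160 FPKM, and Ppp1r3c, which targets a phosphatase to glycogen, rose by 6.34 ± 0.21 (log2, counts) from 0.735 and 0.7 FPKM to 62.1 and 54.8 FPKM. Its relative Ppp1r3b fell from 5.54 and 5.23 FPKM to 0.417 and 0.428 FPKM. Glutathione transferases, which conjugate toxic compounds, had 11 of 23 higher and 2 lower. Gstm1 rose by 5.48 ± 0.25 (log2, counts) from 5.8 and 5.53 FPKM to 273 and 276 FPKM, while Gsto1, the most abundant at day 1, fell from 270 and 273 FPKM to 29.9 and 37.2 FPKM. Aldh1a1, which makes retinoic acid, led the 9 of 20 aldehyde dehydrogenases that rose, from 0.555 and 1.11 FPKM to 175 and 175 FPKM. Mt1 and Mt2, metal-binding metallothioneins, rose from 289 and 352 FPKM to 2729 and 2168 FPKM and from 75.2 and 65.5 FPKM to 365 and 413 FPKM.

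**Figure D3:**
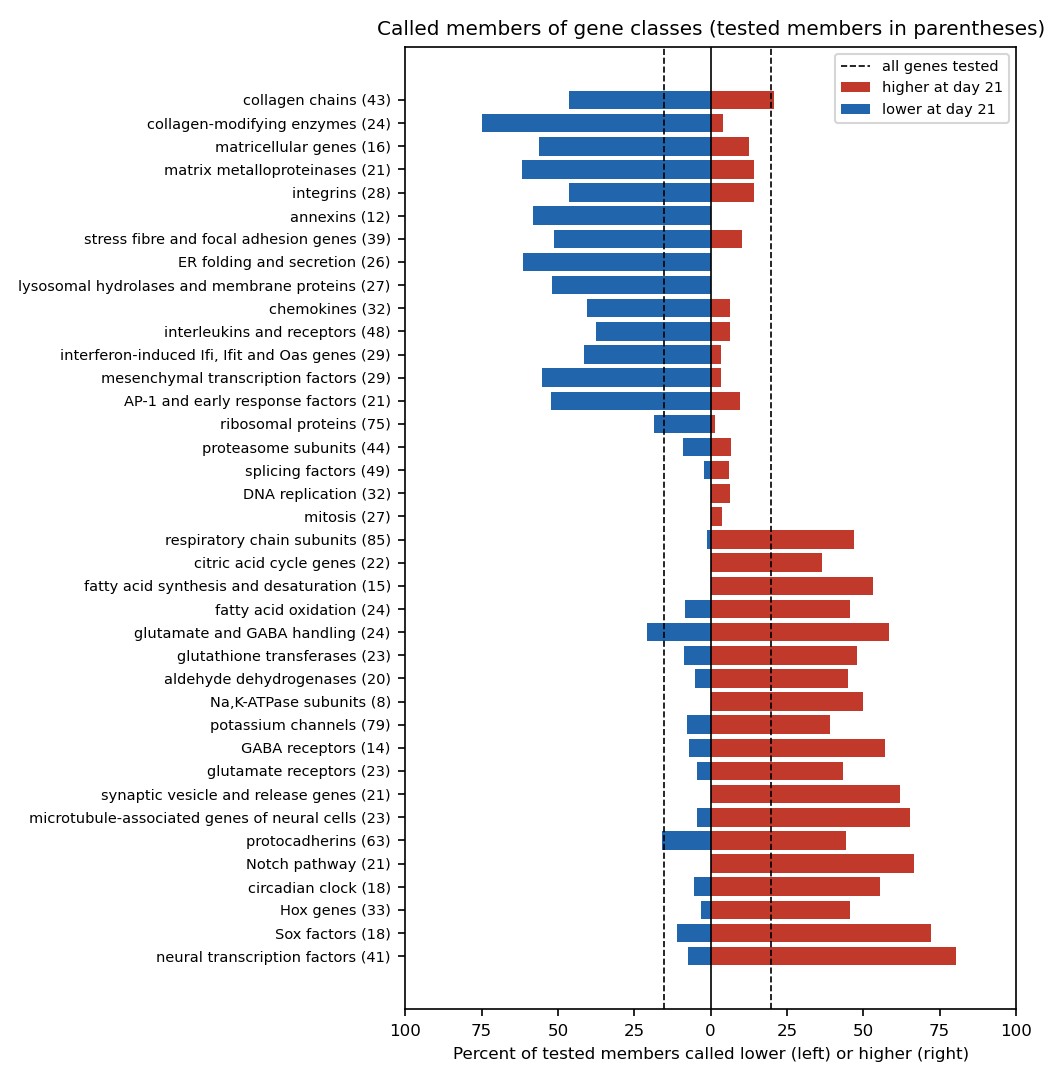
For each gene class, the bar to the right is the percentage of its tested members called higher at day 21 and the bar to the left the percentage called lower, with the number tested in parentheses. Dashed lines mark all genes tested (19.8% higher, 15.2% lower). Matrix, ER, lysosome and cytokine classes extend to the left, while mitochondrial, channel, synaptic and neural transcription factor classes extend to the right, and replication, mitosis and splicing classes stay inside both lines.

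Among channels and pumps, more genes were higher than lower. Of 79 potassium channel genes 31 rose (39.2%) and 6 fell (7.59%). Of the 65 that could be tested on log2(FPKM + 1), 2 fell, and 20 rose after quantile normalisation. Kcnj10, the inward rectifier with which astrocytes buffer potassium, rose by 10.92 ± 0.39 (log2, counts, adjusted p = 2.31e-15) from 0.182 and 0.218 FPKM to 191 and 177 FPKM. Kcnj16, its partner subunit, had no counts at day 1 and was at least 165-fold higher, with 10.3 and 8.64 FPKM at day 21. Kcne4 fell from 6.68 and 6.25 FPKM to 0.509 and 0.464 FPKM. Of 8 sodium pump genes 4 rose and 0 fell. Atp1b2, the glial beta subunit also known as an adhesion molecule, rose by 10.40 ± 0.38 (log2, counts) from 0.211 and 0.574 FPKM to 569 and 545 FPKM. Aqp4, the water channel of astrocyte endfeet, rose by 12.60 ± 0.48 (log2, counts) from 0 and 0.171 FPKM to 481 and 430 FPKM. Astrocyte markers, of which Aqp4 is one, summed to 2.9 and 5.54 FPKM at day 1 and to 3327 and 3552 FPKM at day 21, with 9 of 10 called higher and Gjb6 under 0.1 FPKM on both days. Their part in the rise of channels was not tested.

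Solute carriers as a family were closer to the background, with 85 of 295 higher (28.8%, or 51 genes with quantile normalised FPKM) and 47 lower (15.9%). Slc25a18, a mitochondrial glutamate carrier, had no counts at day 1 and 78.1 and 85.5 FPKM at day 21, which is at least 751-fold higher. Slc20a1, a phosphate importer, fell by 4.42 ± 0.17 (log2, FPKM) from 221 and 217 FPKM to 8.62 and 10 FPKM. Car2, carbonic anhydrase 2, rose by 7.40 ± 0.31 (log2, counts) from 0.137 and 0.33 FPKM to 38.5 and 37.3 FPKM.

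Genes of receptors and synapses rose in number, though many stayed at low levels. Of 14 GABA receptor genes 8 rose and 1 fell (0 on log2(FPKM + 1)), and of 23 glutamate receptor genes 10 rose and 1 fell (0 without day 1 replicate 1 or without day 21 replicate 1). Gabra2, a channel subunit, had 0.0332 and 0.0343 FPKM at day 1 and 30.7 and 23.2 FPKM at day 21, a ratio of 986 (95% interval 176 to 38995, counting error only). Gabrb1 went from 0.0437 and 0.0903 FPKM to 19.6 and 17.8 FPKM. Grik5, a kainate receptor subunit, rose by 4.37 ± 0.18 (log2, counts) from 1.28 and 1.43 FPKM to 29.3 and 29.3 FPKM. Of 21 genes of synaptic vesicles and release, 13 rose and 0 fell (1 without day 21 replicate 2). Syt11, a synaptotagmin that does not bind calcium, was the most abundant, with 1.96 and 3.07 FPKM at day 1 and 312 and 292 FPKM at day 21. Syp, the vesicle protein synaptophysin, reached only 5.67 and 4.66 FPKM from 0.223 and 0.165 FPKM. Of 27 postsynaptic and adhesion genes, 19 rose and 1 fell (0 without either day 21 replicate). Lrrn1, a leucine-rich repeat protein of neural tissue, rose by 8.92 ± 0.21 (log2, counts) from 0.431 and 0.425 FPKM to 128 and 111 FPKM, and Cntn1, the adhesion molecule contactin, from 0.0534 and 0.195 FPKM to 75.4 and 70.2 FPKM.

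Of 12 neuronal markers 8 rose and 2 fell, but 4 or 5 were called higher when any 1 library was left out. The 12 markers summed to 23.6 and 23.9 FPKM at day 1 and to 176 and 163 FPKM at day 21. Most of the day 21 sum was Map2 at 147 and 131 FPKM, and Slc17a6, the glutamate transporter of neurons, was under 0.1 FPKM on both days. The neurofilament genes Nefl and Nefm fell, from 7.42 and 8.33 FPKM to 0.85 and 0.943 FPKM and from 7.41 and 7.65 FPKM to 2.04 and 2.7 FPKM. Of 12 oligodendrocyte lineage markers 6 rose and 2 fell, the latter being Pdgfra and Cspg4, which oligodendrocyte precursors express. The sum of all 12 went from 44.6 and 44.5 FPKM to 624 and 563 FPKM. Most of that was Olig1, a transcription factor that progenitors also express, with 0 and 0.572 FPKM at day 1 and 519 and 458 FPKM at day 21. Mog, a late myelin gene, stayed under 0.1 FPKM. The part of neurons and oligodendrocyte precursors in the synaptic and receptor genes was not tested.

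Protocadherins, which give neural cells their surface identity, had 28 of 63 higher and 10 lower. Of the 57 tested on log2(FPKM + 1) 6 fell, and 15 rose with quantile normalised FPKM. Pcdh10 rose by 4.85 ± 0.17 (log2, FPKM) from 0.453 and 0.392 FPKM to 42.6 and 37.8 FPKM, and Pcdh7 fell from 46.1 and 47 FPKM to 10.6 and 10.1 FPKM. In the clustered beta group, the 8 neighbouring genes from Pcdhb7 to Pcdhb14 were all called higher, from low levels such as 0.23 and 0.159 FPKM to 5.94 and 4.24 FPKM for Pcdhb9. Without day 21 replicate 2, the log2 fold change of Pcdhb7 went from 1.86 to 1.46 and its call was lost (edgeR, adjusted p = 0.0762). In the gamma group, Pcdhgc3 rose from 62.5 and 65.2 FPKM to 210 and 211 FPKM while Pcdhgb2 fell from 7.78 and 7.55 FPKM to 1.37 and 1.86 FPKM. Members of the clustered groups are similar in sequence, and those of the gamma group share exons, so their separate levels are uncertain.

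Neural and mesenchymal transcription factors moved in opposite directions. Of 41 neural transcription factors 33 rose (80.5%) and 3 fell (7.32%, or 1 gene on log2(FPKM + 1)), with a median log2 fold change of 5.24 (2.51 on log2(FPKM + 1)). Of 29 mesenchymal factors 16 fell (55.2%) and 1 rose (3.45%), with a median of -2.86 (-0.88 on log2(FPKM + 1)). Sox8, a factor of glial precursors, had 0.026 and 0.108 FPKM at day 1 and 38.1 and 41.9 FPKM at day 21, a ratio of 2014 (95% interval 361 to 79607, counting error only). Sall3 had no counts at day 1 and was at least 316-fold higher, with 8.68 and 8.77 FPKM at day 21. Sox11, a factor of young neurons, fell from 4.83 and 4.63 FPKM to 2.45 and 2.29 FPKM, though on log2(FPKM + 1) its change of -0.77 was not called. On the mesenchymal side, Prrx1, a homeobox factor of limb and fibroblast mesenchyme, fell by 3.34 ± 0.11 (log2, FPKM, adjusted p = 2.28e-12) from 104 and 105 FPKM to 9.84 and 8.96 FPKM. Twist2 fell by 6.49 ± 0.44 (log2, counts) from 57.3 and 64.8 FPKM to 0.907 and 1.63 FPKM, and Snai2 by 4.38 ± 0.34 from 58.6 and 64.5 FPKM to 4.16 and 3.18 FPKM. Zeb1, which both mesenchyme and neural progenitors express, was not called, at 29.8 and 27.5 against 45.9 and 45.5 FPKM. Hmga2, a chromatin protein of embryonic cells, fell by 5.49 ± 0.25 (log2, counts) from 298 and 316 FPKM to 10.2 and 7.78 FPKM.

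Signalling genes changed pathway by pathway. The Notch pathway, which keeps progenitors from differentiating, had 14 of 21 members higher and 0 lower, with a median log2 fold change of 2.66 (1.64 with quantile normalised FPKM). Lfng, a glycosyltransferase that modifies Notch, rose by 4.01 ± 0.21 (log2, counts) from 1.67 and 2.17 FPKM to 35.9 and 33.5 FPKM. Hey1, a target of Notch, had no counts at day 1 and was at least 391-fold higher, with 36.7 and 32.5 FPKM at day 21. Hes1, the Notch target that many cell types use, was not called, at 23.4 and 24.8 against 18.6 and 18.8 FPKM. In the Wnt system, 9 of 23 inhibitors and targets rose (5 on log2(FPKM + 1)) and 2 fell. Axin2, a common readout of the pathway, rose by 5.57 ± 0.30 (log2, counts) from 0.342 and 0.354 FPKM to 12.4 and 12 FPKM. The secreted inhibitor Dkk2 fell by 4.34 ± 0.27 (log2, counts) from 72.9 and 77.6 FPKM to 6.43 and 6.1 FPKM. Wnt7a had no counts at day 1 and 6.56 and 8.01 FPKM at day 21, and Wnt5a fell from 16.7 and 17 FPKM to 6.87 and 5.26 FPKM.

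The receptors for fibroblast growth factor moved in both directions. Fgfr1 fell from 87.1 and 89.7 FPKM to 23.2 and 26.2 FPKM. Fgfr3 rose from 0.0776 and 0.126 FPKM to 27.6 and 34.6 FPKM, and Fgfr2 from 1.13 and 1.24 FPKM to 9.34 and 8.26 FPKM. At day 21 Fgfr1 thus remained near the level of Fgfr3 and above that of Fgfr2. Wwtr1 and Yap1, the effectors of Hippo signalling, fell from 106 and 101 FPKM to 22 and 22.2 FPKM and from 47.4 and 46.2 FPKM to 19 and 18.6 FPKM, the former without a call on summed counts (log2 fold change -1.47). The list of Hippo targets and effectors, which holds both of them, did not move as a unit. Of its 18 genes 7 fell (2 on log2(FPKM + 1)), Wwtr1 and Yap1 among them, and 2 rose. Cyr61 was not called at 37.4 and 39.4 against 23.8 and 27.6 FPKM. Binding proteins of insulin-like growth factor also moved in both directions. Igfbp2 rose by 7.16 ± 0.26 (log2, counts) from 2.56 and 3.24 FPKM to 465 and 545 FPKM, and Igfbp5 fell by 3.57 ± 0.29 from 1060 and 1020 FPKM to 113 and 108 FPKM. Sema7a, a membrane-anchored guidance protein, fell by 8.20 ± 0.34 (log2, counts) from 138 and 131 FPKM to 0.585 and 0.772 FPKM. Thra, the thyroid hormone receptor alpha, rose by 3.39 ± 0.20 (log2, counts) from 14.8 and 15.1 FPKM to 161 and 192 FPKM.

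Of 18 genes of the circadian clock 10 rose and 1 fell, with a median log2 fold change of 1.62 (0.96 with quantile normalised FPKM). The output factor Dbp rose by 5.44 ± 0.42 (log2, counts) from 1.22 and 0.684 FPKM to 44.4 and 56.5 FPKM, and Nr1d1, a repressor in the loop, by 2.99 ± 0.29 from 5.61 and 5.77 FPKM to 33.7 and 38.2 FPKM. Arntl, the activator that Nr1d1 represses, was the member that fell, from 23.8 and 21.8 FPKM to 6.52 and 4.91 FPKM. The hours of harvest are not stated in the sources at hand, so clock phase and level cannot be told apart.

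**Figure D4:**
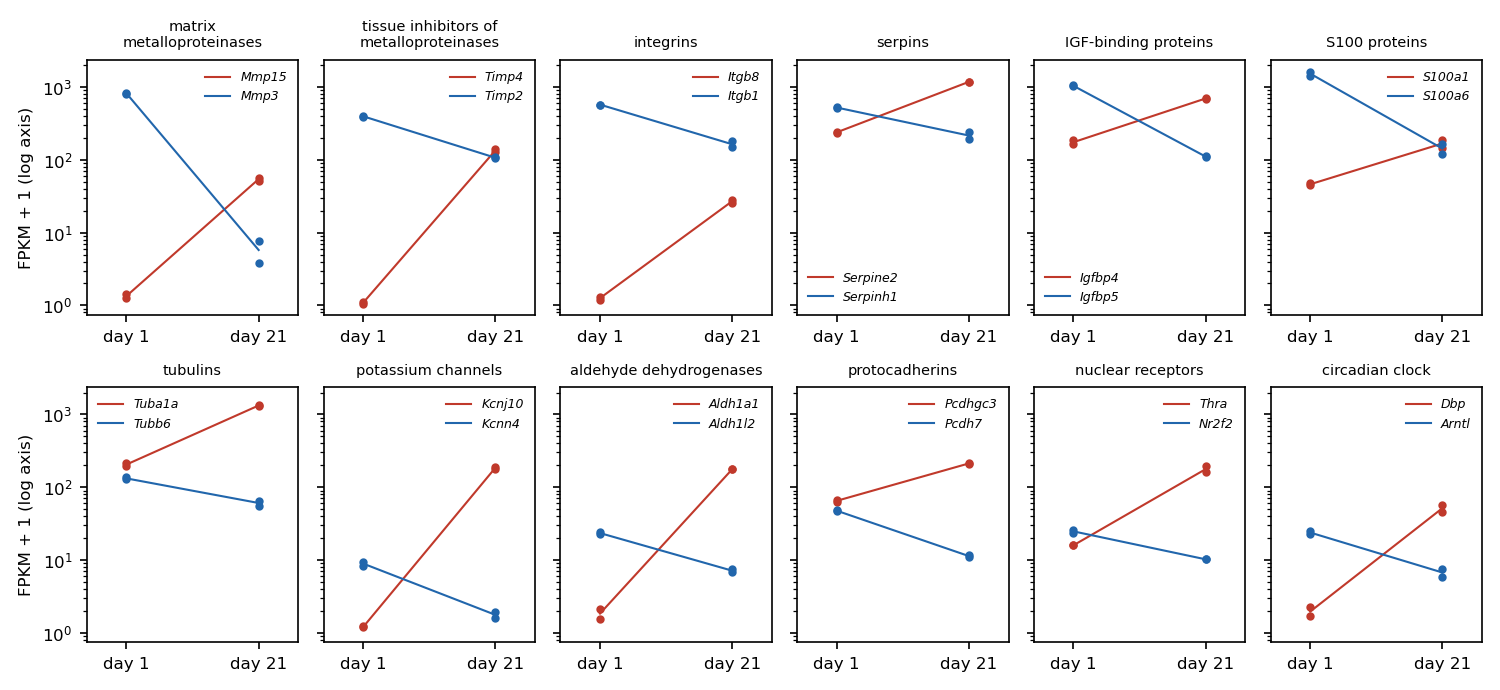
In each of 12 gene families with called members in both directions, the red line is the higher-called member and the blue line the lower-called member with the highest level in its higher group. Points are the 2 libraries per day as FPKM + 1 on a log axis, and lines join the group means. The replicates lie close together beside the change for each gene shown.

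Hox genes, which mark the position of a cell along the body axis, rose in blocks. Of 33 tested, 15 rose (45.5%) and 1 fell (0 without day 21 replicate 2). The run from Hoxa2 to Hoxa9 on chromosome 6 (52112510 to 52177369, mm9) held 9 neighbouring tested genes called higher, among them the noncoding Mira. Hoxa6 had 0.142 and 0.145 FPKM at day 1 and 8.54 and 11.4 FPKM at day 21. Hoxa3 rose by 3.30 ± 0.39 (log2, counts) from 1.37 and 1.22 FPKM to 9.19 and 8.35 FPKM. Hoxa10, next to Hoxa9, was not called, at 5.74 and 4.73 against 10.7 and 8.92 FPKM. Hoxa3 spans several of its neighbours in the annotation, so reads in the overlap may have been set aside. Hoxb8 rose from 7.62 and 9.58 FPKM to 54.2 and 49 FPKM and Hoxc8 from 29.7 and 32.7 FPKM to 157 and 148 FPKM, while Hoxc6 was not called at 48.4 and 49.7 against 68.3 and 63.9 FPKM.

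A region on chromosome 12 that is imprinted, so that 1 parental copy is active, moved in both directions. Meg3, Rtl1, 6430411K18Rik, Rian, AF357359 and Mirg (110779206 to 110987667, mm9) were 6 neighbouring tested genes called lower. Mirg, a host of microRNAs, had 5.19 and 5.82 FPKM at day 1 and 0.229 and 0.352 FPKM at day 21. Dlk1, a paternally active gene next to this run, rose by 1.15 ± 0.22 (log2, FPKM) from 3.77 and 3.6 FPKM to 9.18 and 9.63 FPKM. Whether direction followed the parental copy was not tested. Rtl1 and its antisense transcripts overlap, and the strand setting of the counting is not stated in the sources at hand, so their reads cannot be told apart. The call on 6430411K18Rik was lost without day 21 replicate 1 (edgeR, adjusted p = 0.0583) and without day 21 replicate 2 (0.0697). On FPKM, 6430411K18Rik and Rtl1 were not called, with log2 fold changes of -0.88 and -0.29. Dlk1 was at 0.83 and not called after quantile normalisation. A run of 6 lectin receptor genes on chromosome 6, Clec4n, Clec4d and Clec4e among them, was also called lower throughout. Clec4d went from 15.8 and 15.3 FPKM to 1.9 and 2.05 FPKM. These receptor genes arose by duplication, and reads of near-identical copies may not be assigned correctly.

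**Figure D5:**
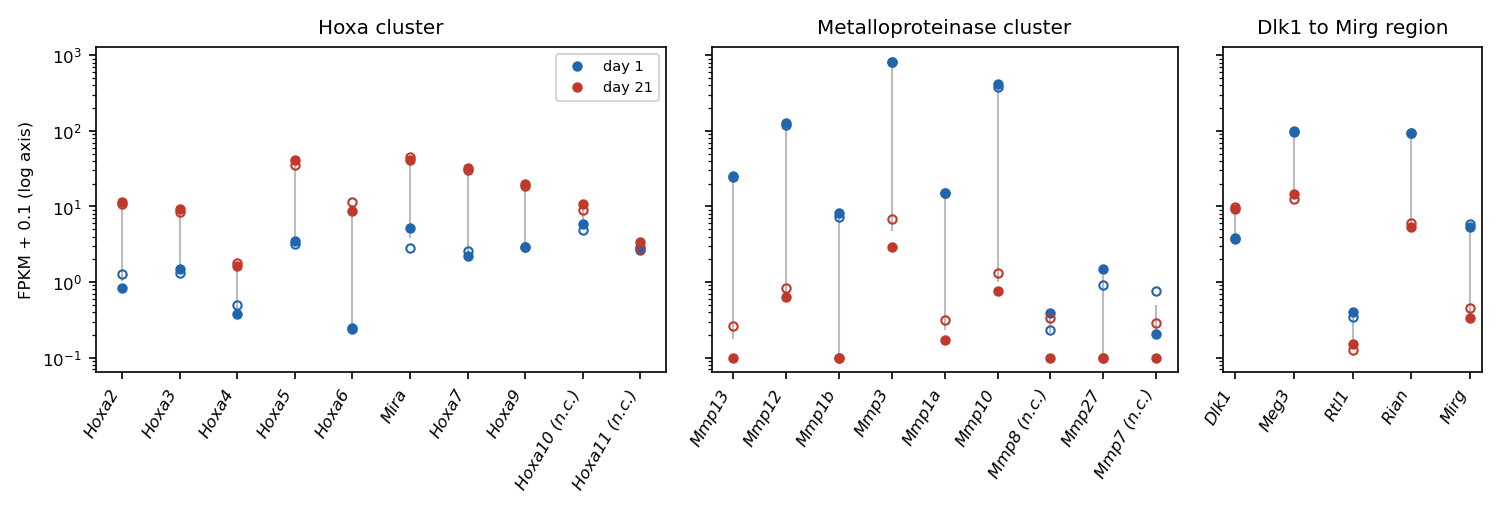
Levels are plotted gene by gene along the Hoxa cluster, the metalloproteinase cluster and the Dlk1 to Mirg region, in chromosome order, as FPKM + 0.1 on a log axis. Filled circles are replicate 1 and open circles replicate 2, blue for day 1 and red for day 21, grey lines join the group means, and n.c. marks genes not called. Hoxa2 to Hoxa9 lie higher at day 21, Mmp13 to Mmp10 lower, and Dlk1 moves against Meg3, Rian and Mirg.

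In each of 3 lists of immune genes, more members fell than rose. Of 32 chemokines 13 fell (40.6%) and 2 rose (6.25%), and of 48 interleukins and their receptors 18 fell (37.5%) and 3 rose (6.25%). Of 29 Ifi, Ifit and Oas genes 12 fell (41.4%, or 7 genes on log2(FPKM + 1)) and 1 rose (3.45%). Over all genes 15.2% were lower and 19.8% higher. Among other immune families, 36.1% of TNF superfamily and receptor genes and 54.5% of toll-like receptors fell. For histocompatibility genes 18.5% fell, and for guanylate-binding and immunity GTPases 15.8%, near the share of all genes. Ccl2, which attracts monocytes, fell by 5.77 ± 0.30 (log2, counts, adjusted p = 7.3e-13) from 269 and 274 FPKM to 8.13 and 4.77 FPKM. Cxcl12, a chemokine of stromal cells, fell by 4.24 ± 0.18 (log2, FPKM) from 42.4 and 47.6 FPKM to 1.75 and 1.15 FPKM. Il13ra1 fell from 36.1 and 34.7 FPKM to 1.59 and 1.93 FPKM, and Stat6, which acts downstream of that receptor, from 21.9 and 20.5 FPKM to 2.97 and 3.89 FPKM. Cx3cl1, a chemokine that neural cells carry on their surface, rose from 5.99 and 6.31 FPKM to 19.1 and 20 FPKM, and the cytokine gene Il18 rose from 1.61 and 1.87 FPKM to 25.4 and 24.1 FPKM. Ifitm3, an antiviral membrane protein and the most abundant of the interferon-induced list, was not called at 583 and 588 against 402 and 441 FPKM. Gzme, a protease gene of killer lymphocytes, had 24.5 and 24.6 FPKM at day 1 and 0 at day 21, which is at least 78-fold lower. Macrophage markers fell in 10 of 14, but C1qc, a complement gene typical of these cells, was not called at 52.2 and 61.7 against 53.4 and 54.3 FPKM. The macrophage markers summed to 1013 and 1030 FPKM at day 1 and to 450 and 539 FPKM at day 21, and their part in the fall of immune genes was not tested.

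Few genes of DNA replication and mitosis passed the thresholds. Of 32 genes of DNA replication 2 rose (6.25%, or 4 genes without day 1 replicate 2) and 0 fell, with a median log2 fold change of 0.28. Of 27 mitotic genes 1 rose (0 without day 1 replicate 1 or without day 21 replicate 1) and 0 fell (1 without day 1 replicate 2 or without day 21 replicate 1), with a median of 0.13. On log2(FPKM + 1) the mitotic median was 0.39. Mcm5, a subunit of the replicative helicase, rose by 1.34 ± 0.22 (log2, counts) from 6.49 and 7.36 FPKM to 17 and 18.7 FPKM. Mcm6, a subunit of the same complex, was not called and lay lower at day 21, at 38.2 and 33.7 against 25 and 23.3 FPKM. Top2a was not called at 25.3 and 23.2 against 34.5 and 31.9 FPKM. Of 20 cyclins and inhibitors of the G1 phase 2 rose (10%) and 6 fell (30%), against 19.8% and 15.2% of all genes. Cdkn2b fell from 83.3 and 82.9 FPKM to 28.5 and 28.8 FPKM, Cdkn1a from 287 and 303 FPKM to 140 and 138 FPKM (-0.82 and not called on summed counts), and Cdkn2c rose from 3.25 and 2.53 FPKM to 13.4 and 12.7 FPKM. Of 75 ribosomal protein genes 14 fell (18.7%, or 9 genes on log2(FPKM + 1)) and 1 rose (1.33%), with a median of -0.54. The share that fell was near the 15.2% of all genes. Rps20 fell by 1.90 ± 0.26 (log2, counts) from 273 and 279 FPKM to 84.4 and 104 FPKM. The call on the member that rose, Rpl23a, is uncertain, since it rose by 2.23 on counts while its FPKM were 102 and 122 against 88.7 and 98.4. Of 44 proteasome subunits 3 were higher and 4 lower, and of 49 splicing factors 3 were higher and 1 lower, all shares below those of all genes. The 3 higher proteasome calls were lost without day 1 replicate 1, and the 4 lower calls went to 2 without day 1 replicate 2 or without either day 21 replicate. The 1 lower splicing call went to 0 or 2 when any 1 library was left out. For 8757 of 15658 genes with FPKM (55.9%), the 95% interval of the change lay within 2-fold.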

How the data were processed

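The authors deposited, for each library, whole-number read counts per RefSeq transcript and FPKM values per transcript, made with HTSeq 0.6.0 and Cufflinks 2.2.1 after alignment with TopHat2 2.0.12 to mm9, per the submitters' processing notes, which also name edgeR. The strand setting of the counting is not given in the sources used here. Between 21.38% and 23.23% of the reads of the 4 libraries were counted in transcripts and 53.75% to 56.31% had no feature, and only the former entered library sizes.

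Counts of 29243 transcripts were summed by gene symbol into 23130 entries, where transcripts without a symbol kept their own name. FPKM were also summed by symbol, and results are given for the 22517 genes with a symbol. Counting was per transcript, so reads shared by transcripts of a gene were apparently set aside, which was not tested. Genes with 1 transcript (18689) were therefore tested on counts and genes with several transcripts (3828) on FPKM. Counts were tested with edgeR 4.0.16 (R 4.3.3, TMM, filterByExpr, quasi-likelihood test) in 1 fit of all 22 libraries, with 11 residual degrees of freedom and a common biological coefficient of variation of 0.161. The SE on counts is approximate, the fold change on the log2 scale over the root of F. Limma 3.58.1 served for log2(FPKM + 1), for genes at 1 FPKM or more in at least 2 libraries. Both tests are two-sided, with Benjamini-Hochberg adjustment over each whole table. Folds for genes with no counts in a group use a floor of 3 counts over its 2 libraries, and intervals and floors cover counting error only. The procedures were tested on simulated data, and DESeq2 1.42.0 was an alternative.

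The members, gene lists and families were chosen with earlier results of these data known. Genes were named by rule: the 12 largest gains and 12 largest losses in FPKM, and in each list the 3 most abundant members, up to 3 called members per direction with the largest change at 5 FPKM or more, the most abundant called member per direction of families that moved both ways, and the cell type markers. Genes named for their place beside others, Hoxa10, Mmp7, Mmp8, Mmp12 and Dcun1d5 among them, and single genes outside this rule were chosen after their values were seen. Some genes that the rule names are not reported here. Promoters came from RefSeq (GRCm38.p6). A comparison of promoter features over all called genes was void, since 12854 of 16307 tested genes (78.8%) had a promoter there, under the 80% set as the minimum.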

Additional observations from a re-analysis of the deposited data

How the results depend on the processing

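With 2 libraries per day, the tests lean on spread shared over all groups, and leaving out a library leaves 1 in its group, which is then assumed to vary like the others. The counts of genes called on counts and on FPKM stayed within 1.5 times of the reported number under other scalings, filters, sets of libraries and DESeq2, with these exceptions. On counts, the 2150 lower genes became 1412 when the 2-fold change itself was tested (glmTreat), all of them among the 2150, and 1269 with limma on FPKM, 1242 of them shared. Among genes with several transcripts, 648 higher and 336 lower became 221 and 140 with edgeR on summed counts, where 1272 genes could be tested and 172 and 78 were shared. Over all genes, 2486 lower genes became 1605 with limma on FPKM, and 3226 higher genes became 2084 with quantile normalised FPKM for all genes, an alternative chosen after seeing the data. When each library was left out in turn, genes higher on counts numbered 2174 to 2375 and lower 1944 to 2207, and on FPKM 642 to 656 and 325 to 348. Without the 10 most abundant genes, lipid carriers held 0.133% of summed FPKM at day 1 and 0.294% at day 21, matricellular genes 1.67% and 0.0971%, and respiratory chain subunits 1.91% and 4.43%.

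Of 197 genes given with a change, 172 kept both their sign and their call, or lack of one, in every setting that gave them a value. The call of 7 was lost under glmTreat, of 7 besides Rpl23a with limma on FPKM, and of 4 with edgeR on summed counts. Of 116 counts of called list members, 23 dropped by over 1.5 times under glmTreat, 22 with limma on FPKM and 20 with quantile normalised FPKM for all genes. The sign turned for 1 called gene, Rpl23a, at -0.26 with limma on FPKM. It also turned for genes that were not called. C1qc was at 0.05 with upper quartile scaling, at 0.02 in the 4 libraries alone and at 0.01 in the 14 induction libraries, and Idi1 at 0.34 and Sc4mol at 0.09 with limma on FPKM. With each library left out in turn, Calr ranged from -0.01 to 0.05, Cyp51 from -0.06 to 0.26, Hoxc6 from -0.01 to 0.27, Idi1 from -0.59 to 0.20, Mmp7 from -6.23 to 0.00 and Top2a from -0.02 to 0.21. The causes were not tested.

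No pairing by replicate number was seen over all genes tested on counts. Deviations from the group means correlated at -0.003 between day 1 and day 21, and between -0.127 and 0.1 over 55 pairs of groups. A correlation over all genes cannot exclude a pairing that touches some genes, and the labels do not state one. With the replicate block, 2549 genes were higher and 2117 lower on counts, and 648 and 336 on FPKM.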

Other observations

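Some families not described above had members called in both directions. Of 25 tetraspanins, membrane proteins that organise receptors, 10 rose and 3 fell. Cd81 went from 241 and 253 FPKM to 1038 and 1081 FPKM, and Tspan12 from 0.985 and 0.953 FPKM to 59.4 and 52.7 FPKM, while Cd53 fell from 11.6 and 11.2 FPKM to 2.51 and 2.88 FPKM. Of 29 semaphorins and plexins 8 rose (27.6%, or 4 genes with quantile normalised FPKM) and 7 fell (24.1%), against 19.8% and 15.2% of all genes. The receptor gene Plxnb1 rose from 1.03 and 0.913 FPKM to 12.1 and 12.3 FPKM, and the ligand gene Sema3f fell from 5.55 and 5.82 FPKM to 0.644 and 0.867 FPKM. Of 678 genes with noncoding transcripts only, 155 rose (22.9%) and 84 fell (12.4%, or 55 genes without day 21 replicate 2), near the 19.8% and 15.2% of all genes. Of the 510 that could be tested on log2(FPKM + 1), 97 rose and 37 fell, and with quantile normalised FPKM 63 and 55. Their median log2 fold change was 0.41, against 0.17 and -0.01 on those scales. E030003E18Rik had no counts at day 1 and 97.7 and 102 FPKM at day 21, and Dnm3os, a noncoding transcript, fell from 22.6 and 20.6 FPKM to 0.536 and 0.584 FPKM.

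Several genes that rose had a day 21 level far from that of the established line, as means ± SD of 2 libraries and without a test. They were singled out after their values were seen. Acta2 had 32.4 ± 0.818 FPKM at day 1, 3.57 ± 0.634 FPKM at day 17, 134 ± 12.1 FPKM at day 21 and 0.0741 ± 0.105 FPKM in giNPC at passage 6. Gabra2 had 3.54 ± 0.774 FPKM at day 17, 27 ± 5.28 FPKM at day 21, 0.283 ± 0.35 FPKM at passage 6 and 1.64 ± 0.0866 FPKM in NPCs from neonatal brain. Aqp4 had 456 ± 36 FPKM at day 21, 60.3 ± 27 FPKM at passage 6 and 29.6 ± 0.118 FPKM in brain NPCs. Igfbp2, in contrast, had 505 ± 56.6 FPKM at day 21, 590 ± 93 FPKM at passage 6 and 1718 ± 32.1 FPKM in brain NPCs. The giNPC replicates at passage 6 differed widely for Hoxc8 (24.6 ± 25.4 FPKM) and Apoe (2708 ± 2485 FPKM).

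The day 1 libraries differed for genes of the late state, a pattern noticed in these data and described without a test. Of 67 genes that rose, reached at least 50 FPKM at day 21 and had a day 1 mean under 1 FPKM, 54 were higher in day 1 replicate 2 and 9 in replicate 1. The median level was 0.0967% of the day 21 level in replicate 1 and 0.244% in replicate 2. When the genes were instead chosen by a level under 1 FPKM in replicate 2, 52 of 65 were higher in replicate 2. The cause was not tested.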
